A study of Glycine soja with 14 samples.

Results

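The comparison described here is that of young leaves of wild soybean after 12 h in sodium bicarbonate with leaves of untreated plants. It comprised 4 of the 14 arrays of the series, the 2 labelled 12 h of 50 mM NaHCO3 and the 2 labelled standard condition (0 h), chosen by those labels. All plants were Glycine soja of line G07256, 21 days old, grown in a day of 12 h light and 12 h dark in dilute Hoagland's nutrient solution. The 12 h plants had been moved into the same solution with 50 mM NaHCO3 at pH 8.5, and the 0 h plants had not. Each array carried RNA from the pooled leaves of 3 plants. The series title names transcription factors and abscisic acid signalling as its subject.

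Bicarbonate makes the root medium alkaline, adds sodium and lowers the availability of iron and phosphate to the plant. Heat shock factors and chaperones, water channels, abscisic acid and the kinases it activates belong to the known stress responses of plants. Leaves also change much of their transcriptome with the hour of the day through a clock in which LHY is a morning factor and LUX an evening factor. No untreated leaves were taken at 12 h, and the clock hour of sampling is not given in the sources used here. Treatment and time of day therefore cannot be told apart in this comparison, whereas plants sampled at 24 h were back at the hour of the 0 h sampling.

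Values are probe set intensities of 1-colour Affymetrix soybean arrays, scaled so that every array had the same median over 37593 soybean probe sets. Changes are differences of log2(value + 16), 12 h minus 0 h, ± SE with n = 2 arrays a time, a scale that understates changes of dim genes. The test was limma's, fitted to all 14 arrays, with p-values adjusted over all soybean probe sets and a threshold of 0.05. Background on each array was the 95th percentile of the 23350 probe sets for a water mould and a nematode, 25.1 and 25.8 at 0 h and 14.7 and 18.2 at 12 h. Where no array of a group was above it, the fold of a gene is given as a lower bound (at least N-fold). This bound is the mean of the brighter group over that of the dimmer one, with each dim array set to its background or to the gene's level there, whichever was higher. Log2 differences printed for such a group, as for some other probe sets of a gene, are against unmeasured signal and are no bound. The 2 arrays of 0 h correlated at 0.965 and those of 12 h at 0.972 across probe sets. Soybean probe sets above background were 68.5 and 68.1% at 0 h and 77.2 and 73.5% at 12 h. With 2 arrays a time precision is limited, and the SE had a median of 0.19. Labelling spike-in bioB read 280.0 on 12 h replicate 1, against 474 to 526 on the other 3 arrays, and its part in the results was not tested. The 3′ to 5′ ratio of actin was 3.39 and 2.22 at 0 h and 2.87 and 2.29 at 12 h.

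The tissue label was checked with marker genes. All 5 leaf markers, 4 genes of Rubisco activase and the light-harvesting gene CAB3, were above background on all 4 arrays, with summed levels of 26195 and 25944 at 0 h and 14560 and 11673 at 12 h. Of 9 seed storage genes 8 were above background on no array, and the list summed to 99.3 and 103 at 0 h and 65.8 and 67.2 at 12 h. Of 22 seed maturation genes 13 were above background on no array, and the list summed to 3712 and 3058 at 0 h and 3451 and 3366 at 12 h. Most of these sums came from PM23 and PM37, the only 2 above background on all 4 arrays, which changed in opposite directions. PM23 read 1427 and 1172 at 0 h and 202 and 256 at 12 h. PM37 read 2030 and 1650 at 0 h and 2852 and 2864 at 12 h. Of 13 nodule genes 6 were above background on no array, 2 were called higher and 1 lower, and their sums were 265 and 261 at 0 h and 476 and 278 at 12 h. In whole leaves, fewer cells of a type and less RNA per cell cannot be told apart.

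After 12 h the transcriptome differed widely from that of untreated leaves. Of 37593 probe sets 9175 differed (24.4%), 4301 higher (11.4%) and 4874 lower (13%). Among those that differed, 1957 probe sets fell at least 2-fold and 1194 rose at least 2-fold, and 437 fell and 180 rose at least 4-fold. Of 6029 genes with a symbol 28.2% differed, and of 28916 probe sets with no single symbol 23.3%. Among the 1003 genes whose symbol is not a LOC number, called genes with a name below, 289 differed (28.8%), 112 higher (11.2%) and 177 lower (17.6%). The excess of falls depended on the scaling, with 46.9% of calls higher as scaled here, 55.6% without scaling and 53.6% with quantile normalization. Of 7049 probe sets above background on none of the 4 arrays, 25 were called higher and 269 lower, and the background itself was lower at 12 h; its part in these calls was not tested. The count was 5634 without 12 h replicate 1 and 3641 when only the 4 arrays compared were fitted.

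**Figure D1:**
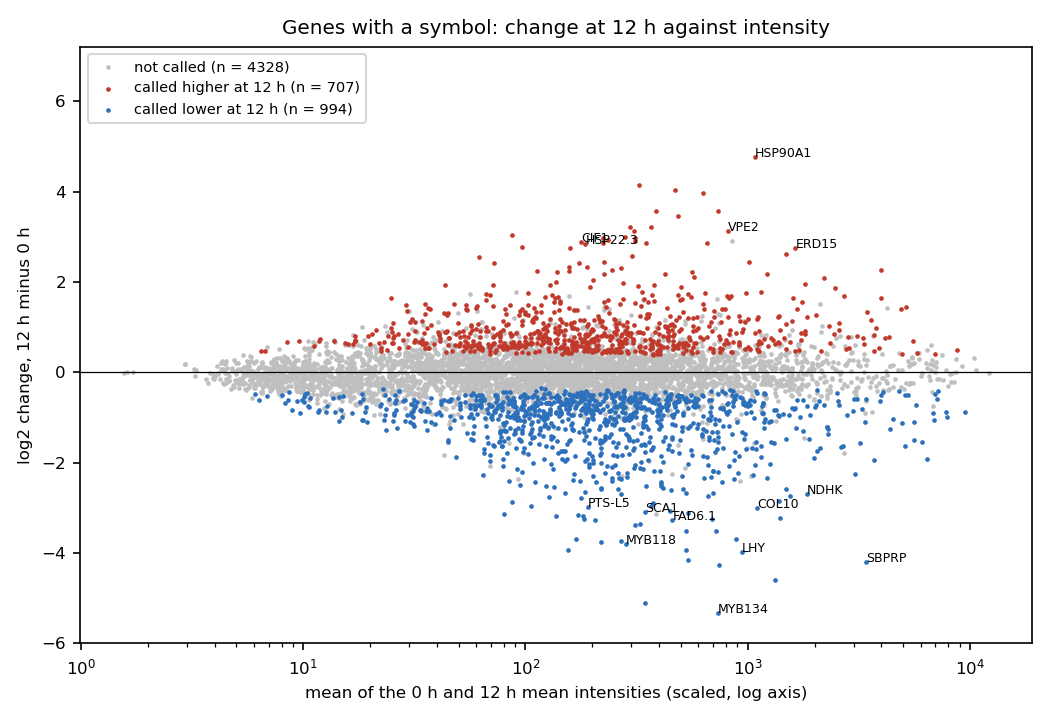
Each point is 1 of the 6029 genes with a symbol, with the mean scaled intensity of both times on a log axis and the log2 change at 12 h against 0 h on the other. Red points were called higher (n = 707) and blue points lower (n = 994), and HSP90A1 and MYB134 lie at the ends of the range of genes with a name.

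Clock genes were displaced in opposite directions. LHY, a MYB-type repressor that peaks around dawn in Arabidopsis, read 1962 and 1601 at 0 h and 60.6 and 151 at 12 h. Both 12 h arrays lay far below both 0 h arrays. The level fell by 3.98 ± 0.28 (adjusted p = 4.2e-06), or 15.8-fold, and its second probe set fell by 3.79. LCL3, an LHY/CCA1-like gene, read 144 and 91.8 at 0 h and 13.3 and 9.12 at 12 h, not above background at 12 h and at least 7.03-fold lower (adjusted p = 6.9e-05). LUXC, a LUX ARRHYTHMO-like evening factor, went the other way with 66 and 51.2 at 0 h and 435 and 347 at 12 h, a rise of 2.45 ± 0.20 (adjusted p = 1.25e-05). ZTL1, an F-box photoreceptor of the ZEITLUPE family, read 208 and 164 at 0 h and 163 and 119 at 12 h (-0.37 ± 0.17, adjusted p = 0.145), although its dimmer probe set fell by 1.09. At 24 h LHY read 2512 and 2672, LCL3 325 and 237 and LUXC 47 and 34.4. The direct test of 24 h against 12 h gave 4.53 (adjusted p = 1.57e-06) for LHY and -2.84 (adjusted p = 3.55e-06) for LUXC. LCL3 was at least 17-fold higher at 24 h than at 12 h (adjusted p = 3.18e-06).

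Of 8 genes of light signalling and flowering 3 fell, 0 rose and 5 did not pass (37.5% called, against 28.8% of all genes with a name). The median was -0.36, beside -0.03 over all soybean probe sets. COL10, a CONSTANS-like gene, read 1757 and 2186 at 0 h and 228 and 229 at 12 h and fell by 3.01 ± 0.21 (adjusted p = 4.78e-06). Its second probe set did not pass the test (-0.26, adjusted p = 0.629). COL2A, of the same family, read 1679.8 and 1659.7 at 0 h and 461 and 551 at 12 h and fell by 1.70 ± 0.18 (adjusted p = 9.81e-05). PHYA, the far-red photoreceptor phytochrome A, fell by less, 0.76 ± 0.13 (adjusted p = 0.00177), from 400.4 and 438 to 219 and 264.

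**Figure D2:**
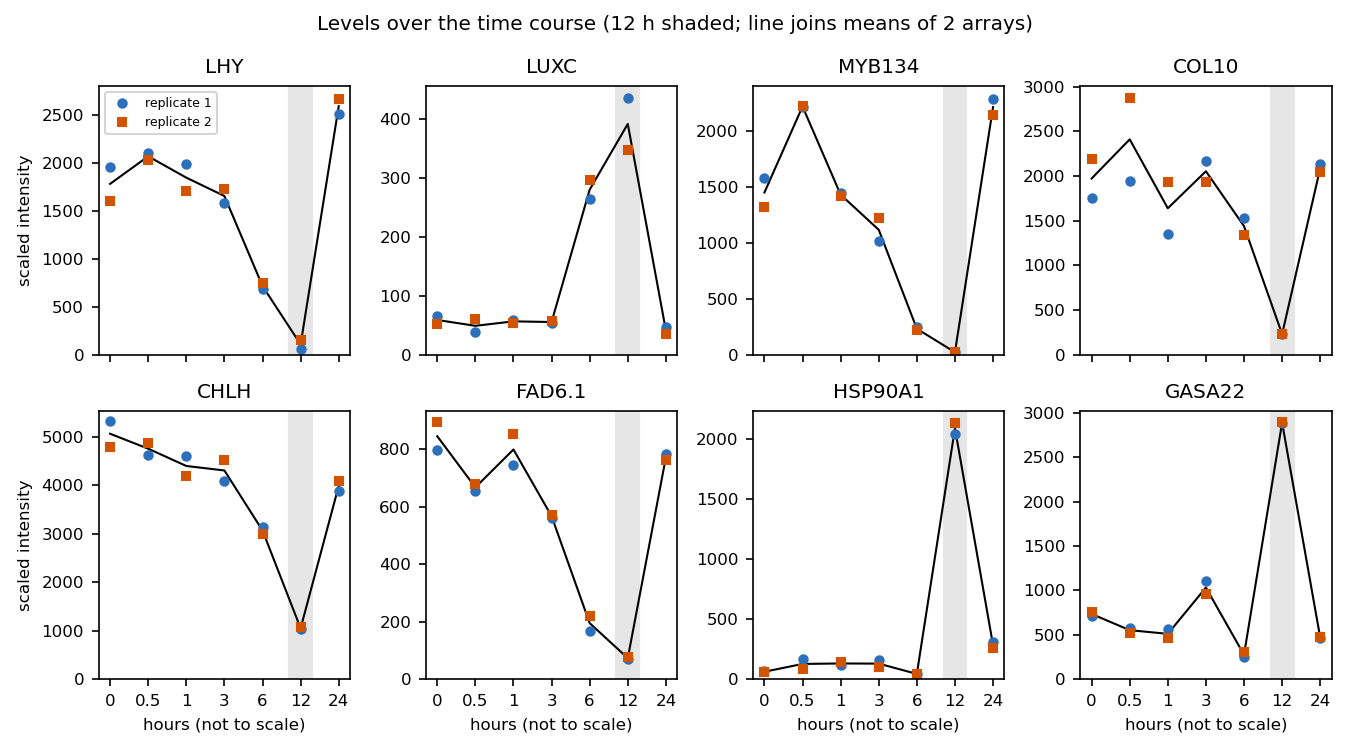
Scaled intensity of 8 genes on each array at the 7 times, with circles and squares for replicates 1 and 2 and a line through their mean; the time axis is not to scale and 12 h is shaded. LHY, MYB134, COL10, CHLH and FAD6.1 were lowest at 12 h, HSP90A1 and GASA22 were highest at 12 h, and LUXC was high at 6 and 12 h.

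Photosynthesis and chlorophyll genes were mostly lower. Of 15 measured, 10 fell and 1 rose (73.3% called, against 28.8% of all genes with a name), with a median of -0.78. CHLH, the large subunit of the magnesium chelatase that commits protoporphyrin to chlorophyll, read 5328 and 4799.6 at 0 h and 1030.1 and 1067 at 12 h. It fell by 2.25 ± 0.13 (adjusted p = 1.14e-06), or 4.77-fold, and the arrays of both times were tightly grouped. NDHK, a subunit of the plastid NDH complex of cyclic electron flow, read 3468 and 2959 at 0 h and 479.8 and 477 at 12 h and fell by 2.70 ± 0.44 (adjusted p = 0.00137), and its other probe set fell by 2.56. The Rubisco activase genes RCAALPHA and RCA14, whose products keep Rubisco active, fell by 1.26 ± 0.12 (adjusted p = 4.24e-05) and 1.11 ± 0.13 (adjusted p = 0.00021). RCAALPHA read 6214 and 6202 at 0 h and 2497 and 2654 at 12 h, and RCA14 6875 and 6619 at 0 h and 2895 and 3349 at 12 h. Over the arrays left out in turn 8 to 10 members of the list fell.

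Desaturation and membrane lipid genes fell too, 6 of 14, and 0 rose, with a median of -0.93. That is 42.9% called, against 28.8% of all genes with a name. FAD6.1, the plastid omega-6 desaturase, read 796 and 893 at 0 h and 69.9 and 75.7 at 12 h and fell by 3.27 ± 0.15 (adjusted p = 3.11e-07), or 9.68-fold. FAD8.2, a plastid omega-3 desaturase, read 1876 and 2163 at 0 h and 368 and 623 at 12 h and fell by 2.04 ± 0.20 (adjusted p = 5.51e-05). FAD3C, the omega-3 desaturase of the endoplasmic reticulum, fell by 1.79 ± 0.23 (adjusted p = 0.000314) from 243 and 458 to 88.5 and 82.5. KASII-A, which elongates palmitate for the desaturases, fell by 1.25 ± 0.18 (adjusted p = 0.000778), with its second probe set at -0.52 (adjusted p = 0.132). All 4 were higher again at 24 h by the direct test, by 3.15 ± 0.15, 1.89 ± 0.20, 1.76 ± 0.23 and 1.26 ± 0.18 in that order.

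MYB factors, a large family of plant transcription factors, held the largest fall of any gene with a name. Of 65 genes 22 fell and 10 rose (49.2% called, against 28.8% of all genes with a name), with a median of -0.26. The falls include MYB98 and MYB185, above background on none of the 4 arrays. MYB134 read 1583 and 1319 at 0 h and 19.6 and 21.8 at 12 h and fell by 5.32 ± 0.14 (adjusted p = 1.67e-08), or 39.9-fold. Both 12 h arrays were near background, and at 24 h it read 2291 and 2141. MYB118 read 561 and 519.8 at 0 h and 13.8 and 37.7 at 12 h and MYB114 429.7 and 408 at 0 h and 8.4 and 26.7 at 12 h, each above background on 1 of the 12 h arrays. They fell by 3.80 ± 0.24 (adjusted p = 2.27e-06) and 3.75 ± 0.24 (adjusted p = 2.6e-06). MYB186 read 631 and 581 at 0 h and 27.9 and 67.8 at 12 h and fell by 3.36 ± 0.23 (adjusted p = 3.87e-06). In the other direction MYB127 read 28.9 and 53.1 at 0 h and 343 and 201 at 12 h, MYB177 107 and 54.7 at 0 h and 359 and 561 at 12 h and MYB173 43.8 and 39.9 at 0 h and 183 and 362 at 12 h. These rises were 2.32 ± 0.31 (adjusted p = 0.0004), 2.32 ± 0.30 (adjusted p = 0.000341) and 2.25 ± 0.32 (adjusted p = 0.000619). Without 12 h replicate 1 the list held 14 falls and 6 rises. Levels of MYB134, MYB118, MYB114 and MYB186 rose from 12 to 24 h by 5.93 ± 0.14, 4.45 ± 0.24, 4.82 ± 0.24 and 4.58 ± 0.23.

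**Figure D3:**
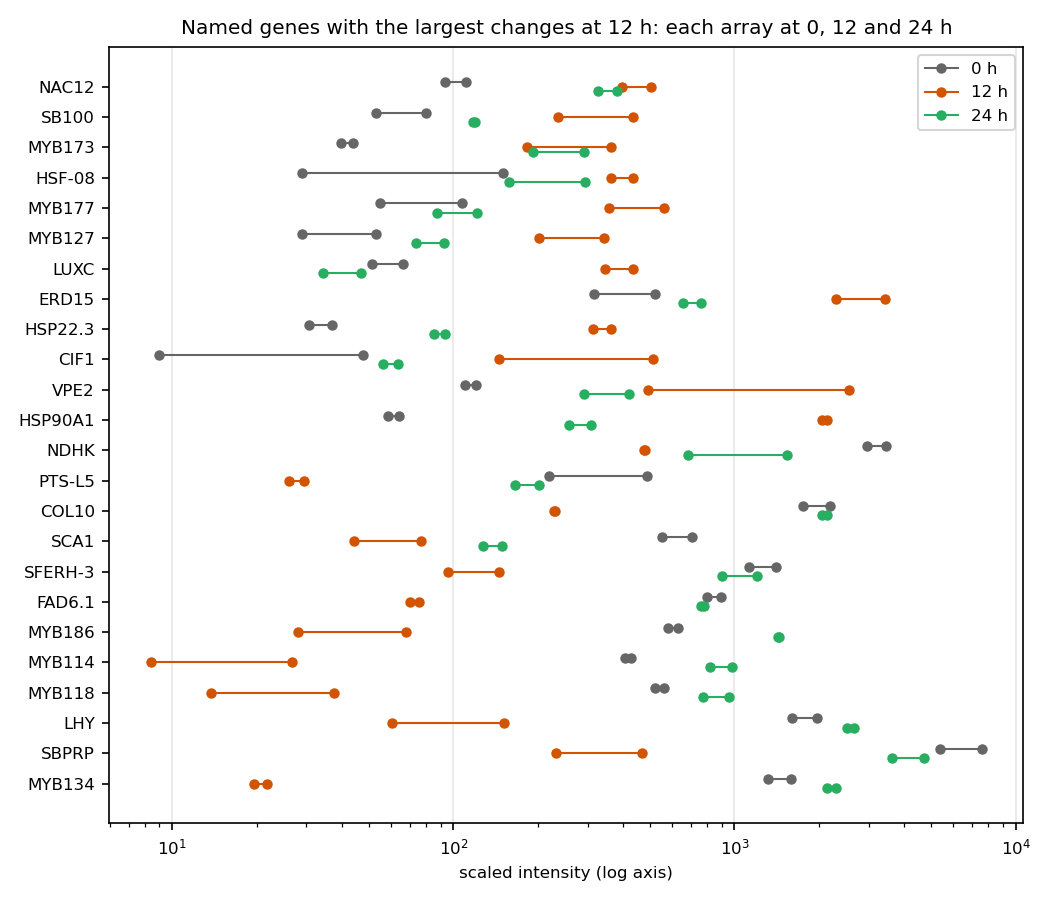
Scaled intensity, on a log axis, of the 12 largest rises and 12 largest falls at 12 h among genes with a name, with 2 arrays joined by a line at 0 h (grey), 12 h (orange) and 24 h (green). Genes were chosen to have both 12 h arrays on 1 side of the 0 h arrays, and the gaps between replicates are wide for VPE2, CIF1 and HSF-08.

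Heat shock proteins, the chaperones that refold or hold damaged proteins, were mostly higher. Of 8 genes 6 were higher and 1 lower (87.5% called), with a median of 1.33. HSP90A1, a cytosolic HSP90, read 63.9 and 58.4 at 0 h and 2044 and 2132 at 12 h, the largest rise of a gene with a name at 4.77 ± 0.26 (adjusted p = 8.18e-07), and its 2 other probe sets rose by 4.94 and 5.19. HSP90-1, a related chaperone already abundant at 0 h, read 1588 and 1467 at 0 h and 2964 and 3250.3 at 12 h and rose by 1.02 ± 0.14 (adjusted p = 0.000558). Of its 6 other probe sets 4 rose, 1 fell and 1 was at -0.17 (adjusted p = 0.463). The small heat shock protein HSP22.3 read 37 and 30.5 at 0 h and 363 and 313 at 12 h, and HSP22.5 1.04 and 5.67 at 0 h and 62.4 and 30 at 12 h, not above background at 0 h and at least 1.7-fold higher (adjusted p = 0.000475). The fall was that of BIP2, a chaperone of the endoplasmic reticulum named here after its value was seen (-0.74 ± 0.25, adjusted p = 0.0477), and it was not called without scaling, with a pseudocount of 1 or 64, with only the 4 arrays compared or without 0 h replicate 2. Of 10 heat shock factors, which switch these genes on, 3 rose and 0 fell, with a median of 0.18. That is 30% called, near the 28.8% of all genes with a name. HSF-03 read 60.6 and 55.1 at 0 h and 211 and 215 at 12 h, a rise of 1.63 ± 0.18 (adjusted p = 0.000107). HSF-26 read 17.6 and 10.5 at 0 h and 55.2 and 57.8 at 12 h, at least 2.22-fold higher (adjusted p = 0.000563). HSF-08 read 151 and 29 at 0 h and 364 and 436 at 12 h, with the 0 h arrays far apart, and rose by 2.26 ± 0.52 (adjusted p = 0.00963). That call was lost when 0 h replicate 2 was left out (adjusted p = 0.0575) or when 12 h replicate 2 was (0.054), and its second probe set was at 1.26 (adjusted p = 0.06).

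The stress cell death list gave large rises with wide replicate spread. Of 5 genes 2 rose, VPE2 and ERD15, and 0 fell (40% called, against 28.8% of all genes with a name). VPE2, a vacuolar processing enzyme that cleaves vacuolar proteins, read 121 and 109.8 at 0 h and 2555 and 492 at 12 h, a rise of 3.12 ± 0.60 (adjusted p = 0.00354) with the 12 h arrays far apart. ERD15, first described as an early dehydration-response gene, read 316 and 522 at 0 h and 3426 and 2301 at 12 h and rose by 2.74 ± 0.60 (adjusted p = 0.00763). The call of ERD15 ended without 12 h replicate 1 (adjusted p = 0.0571). Outside that list, CIF1 read 47.7 and 8.98 at 0 h and 513 and 145 at 12 h and SB100 80 and 53.3 at 0 h and 436 and 236 at 12 h, with rises of 2.87 ± 0.62 (adjusted p = 0.00687) and 2.05 ± 0.26 (adjusted p = 0.000267). Without 12 h replicate 1 the adjusted p of CIF1 was 0.0637, and without 0 h replicate 2 it was 0.0546.

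Calls in the abscisic acid and SnRK2 list were 2 rises and 1 fall of 6 genes, with a median of 0.43. That is 50% called, against 28.8% of all genes with a name. SPK-2 and SPK-4 are SnRK2-type kinases, the family that abscisic acid and osmotic stress activate. SPK-2 read 46 and 50.4 at 0 h and 144 and 132 at 12 h and rose by 1.26 ± 0.21 (adjusted p = 0.00165), and SPK-4 read 80.4 and 80.7 at 0 h and 141 and 153 at 12 h and rose by 0.76 ± 0.13 (adjusted p = 0.00179). ZEP, the zeaxanthin epoxidase that supplies precursors of abscisic acid, read 1638 and 1169.6 at 0 h and 673 and 417 at 12 h and fell by 1.36 ± 0.23 (adjusted p = 0.00197). All 3 calls held without each array in turn. By 24 h SPK-2 had fallen from its 12 h level by 1.71 ± 0.21 and ZEP had risen by 1.31 ± 0.23, while SPK-4 gave -0.36 (adjusted p = 0.0847).

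Of 19 water channel genes 8 fell, 1 rose and 10 did not pass (47.4% called, against 28.8% of all genes with a name), with a median of -0.46. These proteins let water through the plasma membrane (PIP) and inner membranes (SIP), and NIP types also carry small solutes. SIP1-6 read 616 and 821 at 0 h and 73.6 and 155 at 12 h and fell by 2.56 ± 0.28 (adjusted p = 0.000106), with its 2 other probe sets at -2.25 and -2.04. PIP1-6 read 972 and 1732 at 0 h and 371 and 239 at 12 h and PIP2-1 909 and 1404 at 0 h and 284 and 197 at 12 h. PIP1-6 fell by 2.06 ± 0.27 (adjusted p = 0.000378), and PIP2-1 fell by 2.18 ± 0.35 (adjusted p = 0.00125). A dim second probe set of PIP2-1 was at -0.15 (adjusted p = 0.706). NIP2-2 fell by 1.07 ± 0.15 (adjusted p = 0.000569). From 12 to 24 h SIP1-6 and NIP2-2 rose by 2.38 ± 0.28 and 1.49 ± 0.15, whereas PIP1-6 gave 0.69 (adjusted p = 0.118). Over the arrays left out in turn 7 to 8 members fell.

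Uptake and assimilation of nitrogen gave 4 falls and 2 rises among 15 genes, with a median of -0.26. That is 40% called, against 28.8% of all genes with a name. AMT1.3, an ammonium transporter, read 812 and 593 at 0 h and 88.9 and 133 at 12 h and fell by 2.51 ± 0.24 (adjusted p = 4.8e-05). The inducible nitrate reductases INR2 and INR1 read 2086 and 1121 at 0 h and 358 and 611 at 12 h, and 2482 and 1441 at 0 h and 441 and 895 at 12 h, in that order. They fell by 1.67 ± 0.35 (adjusted p = 0.00589) and 1.56 ± 0.37 (adjusted p = 0.0107). SAT1, a bHLH protein first found on the symbiosome membrane, fell by 1.60 ± 0.41 (adjusted p = 0.0162), with its other probe set at -1.02 (adjusted p = 0.0792). Without 12 h replicate 1 the calls of INR2 (adjusted p = 0.0564), INR1 (0.0954) and SAT1 (0.106) ended, the list held 1 fall, and without 0 h replicate 1 those of INR1 (0.0769) and SAT1 (0.116) ended. Without 0 h replicate 2 the list held 0 rises.

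Sugar transport, sucrose and starch genes gave 3 falls and 1 rise of 12, with a median of -0.09. That is 33.3% called, against 28.8% of all genes with a name. SUT1, the sucrose carrier that loads the phloem, read 474 and 574 at 0 h and 226 and 111 at 12 h and fell by 1.62 ± 0.29 (adjusted p = 0.00245), and its 2 other probe sets fell by 1.15 and 1.30. The SWEET sugar exporters SWEET29 and SWEET34 fell by 1.50 ± 0.30 (adjusted p = 0.00483) and 0.99 ± 0.22 (adjusted p = 0.00864). SWEET34 was higher at 12 h than at 6 h by 1.40 ± 0.22 (adjusted p = 0.00324). SWEET29 was not above background at 6 h and was at least 1.93-fold higher at 12 h (adjusted p = 0.0287). BMY2, a beta-amylase of starch breakdown, rose by 1.10 ± 0.30 (adjusted p = 0.0225) from 2033 and 1290.4 to 3488 and 3485, and its 2 other probe sets rose by 1.24 and 1.62. The call of SWEET34 ended without 12 h replicate 1 (adjusted p = 0.0713), as well as without 0 h replicate 1 (0.0526). That of BMY2 ended without 0 h replicate 2 (adjusted p = 0.146), 12 h replicate 1 (0.0874) and 12 h replicate 2 (0.0813).

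Phosphate genes showed 4 falls and 1 rise of 18, with a median of -0.06. That is 27.8% called, against 28.8% called and 17.6% lower among all genes with a name. PHR and PHR7, of the MYB-type family of the phosphate starvation response, fell by 1.54 ± 0.17 (adjusted p = 0.000107) and 1.00 ± 0.14 (adjusted p = 0.000629). SPX3, of a phosphate-sensing family, read 1090.3 and 319.6 at 0 h and 48.9 and 171 at 12 h and fell by 2.47 ± 0.61 (adjusted p = 0.0132), and PAP02, a purple acid phosphatase, fell by 0.64 ± 0.16 (adjusted p = 0.0137). The call of SPX3 ended without 12 h replicate 1 (adjusted p = 0.114) and 0 h replicate 1 (0.0965), and that of PAP02 without 12 h replicate 1 (0.072) and 0 h replicate 2 (0.0772). A gene of iron storage was among the largest falls. SFERH-3, a ferritin that stores iron in plastids, read 1409 and 1127 at 0 h and 96 and 146 at 12 h and fell by 3.24 ± 0.22 (adjusted p = 3.36e-06). Its second probe set fell by 3.12, and another, dim one was at -0.60 (adjusted p = 0.0993).

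Phenylpropanoid and flavonoid genes make lignin precursors, pigments and isoflavonoid defence compounds. Of 38 genes 12 fell and 0 rose, with a median of -0.34. That is 31.6% called, against 28.8% called and 17.6% lower among all genes with a name. Without scaling or with quantile normalization 9 fell, and 6 without 12 h replicate 1. The falls include G4DT, above background on none of the 4 arrays. IF7GT, which attaches glucose to isoflavones, read 782 and 542 at 0 h and 88.1 and 259 at 12 h and fell by 1.98 ± 0.36 (adjusted p = 0.00252). 4CL1, which activates hydroxycinnamic acids, fell by 1.46 ± 0.24 (adjusted p = 0.00165), HIDH, the dehydratase that completes isoflavone synthesis, by 1.16 ± 0.20 (adjusted p = 0.00193), and F3H, the flavanone hydroxylase, by 1.04 ± 0.24 (adjusted p = 0.00936). The call of F3H ended without 0 h replicate 2 (adjusted p = 0.0542). Outside that list, PTS-L5 read 219 and 489 at 0 h and 26 and 29.4 at 12 h and fell by 2.98 ± 0.39 (adjusted p = 0.000361). Of 22 cytochrome P450 genes 1 rose and 2 fell (13.6% called, below the 28.8% of all genes with a name). CYP98A2, a hydroxylase of phenylpropanoid synthesis, fell by 1.53 ± 0.21 (adjusted p = 0.000425), CYP94D24 fell by 0.94 ± 0.20 (adjusted p = 0.00602) and CYP83E8 rose by 0.90 ± 0.14 (adjusted p = 0.000843). That of CYP94D24 ended without 12 h replicate 1 (adjusted p = 0.0551).

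Of 24 glutathione transferases, detoxifying enzymes that join glutathione to reactive compounds, 7 rose, 3 fell and 14 did not pass (41.7% called, against 28.8% of all genes with a name), with a median of 0.42. GSTU28 read 280.2 and 295 at 0 h and 714 and 683 at 12 h and rose by 1.23 ± 0.13 (adjusted p = 0.000103). GSTL3 read 797 and 836 at 0 h and 2052 and 1839.9 at 12 h and rose by 1.24 ± 0.18 (adjusted p = 0.000778), with its other probe sets at 0.50 (adjusted p = 0.0863) and 0.97. GSTU27 was at least 3.35-fold higher (adjusted p = 0.00538), and GSTU47 read 4714 and 1743 at 0 h and 662 and 858 at 12 h and fell by 1.91 ± 0.44 (adjusted p = 0.00953). The calls of GSTU27 (adjusted p = 0.0509) and GSTU47 (0.0645) ended without 12 h replicate 1, where the list held 2 rises, and that of GSTU47 also without 0 h replicate 1 (0.0651). Of 14 antioxidant and alternative oxidase genes 3 rose and 1 fell (28.6% called, near the 28.8% of all genes with a name). The superoxide dismutases SODB and SODB2 rose by 0.69 ± 0.19 (adjusted p = 0.021) and 0.78 ± 0.26 (adjusted p = 0.0486), the catalase CAT1 rose by 0.66 ± 0.17 (adjusted p = 0.0152), and the ascorbate peroxidase APX2 fell by 0.85 ± 0.26 (adjusted p = 0.0339). All 4 were lost when some array of 0 h, or some array of 12 h, was left out, with adjusted p up to 0.114 for SODB, 0.296 for SODB2, 0.0999 for CAT1 and 0.246 for APX2. The call of SODB2 also ended without any 1 array of 0.5, 1, 6 or 24 h (adjusted p = 0.0509 to 0.0632). A second probe set of APX2 above background was at -0.46 (adjusted p = 0.261). The call of APX2 was also lost without scaling, with log2(value + 1) and with only the 4 arrays compared.

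Growth and hormone genes included GASA peptides, small secreted proteins regulated by gibberellin. Of 18 DELLA and GASA genes 4 rose and 0 fell, with a median of 0.30. That is 22.2% called, below the 28.8% of all genes with a name. The largest change of the list was that of GASA3, a fall that did not pass (-2.40 ± 0.93, adjusted p = 0.0826). GASA22 read 713 and 754 at 0 h and 2884 and 2892 at 12 h, a rise of 1.95 ± 0.15 (adjusted p = 1.02e-05) with both times tightly grouped. GASA9 read 1706 and 594 at 0 h and 3058 and 4583 at 12 h, GASA11 256 and 440.2 at 0 h and 787 and 795 at 12 h and GASA27 3015 and 3335 at 0 h and 5059 and 5881 at 12 h. These rises were 1.88 ± 0.57 (adjusted p = 0.0352), 1.20 ± 0.30 (adjusted p = 0.015) and 0.78 ± 0.19 (adjusted p = 0.0113). The calls of these 3 genes ended without 12 h replicate 2, with adjusted p of 0.167, 0.0619 and 0.0715, and the list then held 1 rise. The adjusted p of GASA9 was 0.234 without 0 h replicate 2, and those of GASA11 and GASA27 were 0.105 and 0.0553 without 0 h replicate 1. Without 12 h replicate 1 the calls of GASA9 (0.0728) and GASA11 (0.0642) also ended. A second probe set of GASA27 was at 0.13 (adjusted p = 0.825). Of 5 brassinosteroid genes 2 rose and 0 fell (40% called). BEHL1 and BES1-4, factors of the family that carries the brassinosteroid signal, rose by 1.05 ± 0.18 (adjusted p = 0.00189) and 0.92 ± 0.17 (adjusted p = 0.00262). A dim second probe set of BEHL1 was at -0.16 (adjusted p = 0.6). AFB3B, an auxin receptor F-box gene, was the 1 called of 6 auxin genes (16.7%) and rose by 0.89 ± 0.15 (adjusted p = 0.00181). Neither of 2 cytokinin genes passed the test, and IPT, which makes cytokinins, was not above background at 12 h (adjusted p = 0.194). Of 14 jasmonate and lipoxygenase genes 1 fell (7.14% called). It was the allene oxide synthase AOS2, by 1.85 ± 0.58 (adjusted p = 0.0383), a call lost without any 1 of 10 arrays. The largest change of that list was that of AOC4, a fall that did not pass (-2.36 ± 0.79, adjusted p = 0.0511). The list held 0 falls with a pseudocount of 1 or 64 or another variance prior. It held 2 with the filter on dim probe sets, with the replicate block or with only the 4 arrays compared. None of 14 ethylene and AP2 genes passed limma's test over all probe sets. The lowest p was that of the ethylene receptor ETR2 at 0.77 ± 0.26 (adjusted p = 0.0537), and 1 gene of the list was called without scaling or with quantile normalization.

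Of 10 calcium signalling genes 2 fell and 0 rose, 20% called and so below the 28.8% of all genes with a name. SCA1, a calcium pump, read 551 and 708 at 0 h and 76.4 and 44.2 at 12 h and fell by 3.10 ± 0.44 (adjusted p = 0.000599). SCAM-4, a calmodulin, read 122 and 152 at 0 h and 26.1 and 30.9 at 12 h and fell by 1.78 ± 0.30 (adjusted p = 0.00176). The direct test of 24 h against 12 h gave 1.05 (adjusted p = 0.144) for SCA1 and 0.34 (adjusted p = 0.516) for SCAM-4, and neither passed. Of 8 genes of 14-3-3 proteins, which bind phosphorylated partners, 25% were called. GF14B rose by 1.12 ± 0.16 (adjusted p = 0.00066) and SGF14G fell by 0.46 ± 0.14 (adjusted p = 0.0341). The call of SGF14G ended without 3 arrays (adjusted p up to 0.17) and without scaling.

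Of 60 bZIP factors 6 rose and 10 fell (26.7% called, near the 28.8% of all genes with a name), with 6 falls without scaling, 6 without 12 h replicate 1 and 3 rises without 0 h replicate 1. BZIP46 read 143 and 79.4 at 0 h and 17.7 and 21.7 at 12 h and BZIP50 158 and 300.5 at 0 h and 61.4 and 43.1 at 12 h. BZIP46 fell by 1.79 ± 0.26 (adjusted p = 0.000622), and BZIP50 fell by 1.79 ± 0.32 (adjusted p = 0.00226), with its other probe set at -1.04 (adjusted p = 0.0632). BZIP36 fell by 1.18 ± 0.15 (adjusted p = 0.000294) and BZIP109 rose by 0.86 ± 0.14 (adjusted p = 0.00153). Of 15 NAC factors 4 rose and 1 fell (33.3% called), with a median of 0.64. NAC12 read 111 and 93.1 at 0 h and 397 and 503 at 12 h, a rise of 1.98 ± 0.32 (adjusted p = 0.00126). NAC51 and NAC14 rose by 1.42 ± 0.24 (adjusted p = 0.00183) and 0.91 ± 0.15 (adjusted p = 0.00129), and NAC6 fell by 1.00 ± 0.27 (adjusted p = 0.0193). WRKY factors, linked to defence, gave 1 rise and 2 falls of 52 (5.77%, against 28.8% of all genes with a name). WRKY9 rose by 1.14 ± 0.29 (adjusted p = 0.0164), with its other probe sets at 0.86 (adjusted p = 0.062) and 0.58 (adjusted p = 0.245), and WRKY34 and WRKY2 fell by 0.93 ± 0.21 (adjusted p = 0.00965) and 0.85 ± 0.22 (adjusted p = 0.0168). NAC6 and the 3 WRKY calls each ended without 12 h replicate 1 (adjusted p = 0.0817 to 0.148) and without 0 h replicate 2 (0.0623 to 0.132), and 1 of 3 other probe sets of WRKY34 rose by 1.06.

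Defence genes numbered 16, with 1 rise and 3 falls (25% called, against 28.8% of all genes with a name). KR1, a resistance gene, read 9.7 and 25.5 at 0 h and 78.7 and 76.4 at 12 h and was at least 3.05-fold higher (adjusted p = 0.00248). The matrix metalloproteinase MMP2 read 1409.6 and 976 at 0 h and 350.0 and 358 at 12 h and fell by 1.68 ± 0.33 (adjusted p = 0.00387). EDS5 and EDS1-2, of salicylic acid signalling, fell by 0.66 ± 0.17 (adjusted p = 0.0149) and 0.69 ± 0.21 (adjusted p = 0.0341), calls that each ended without 2 arrays (adjusted p up to 0.119 and 0.209). The Kunitz trypsin inhibitors KTI-2 and KTI-3 rose by 1.18 ± 0.26 (adjusted p = 0.00723) and 0.77 ± 0.23 (adjusted p = 0.0319), and leaving out 12 h replicate 2 ended both calls (adjusted p = 0.0528 and 0.143). That of KTI-3 also ended without 12 h replicate 1 (0.0735) and 0 h replicate 2 (0.206), and its other probe set was at 0.61 (adjusted p = 0.118). KTI-2 and KTI-3 were the only calls among 7 protease inhibitor genes (28.6% called, near the 28.8% of all genes with a name). The median of that list was 0.02. KTI3, a separate gene of the list, was above background on no array of 0 or 12 h and was not called (-0.51, adjusted p = 0.053). Of 12 cyclophilins, protein-folding isomerases, 33.3% were called. CYP26 rose by 1.43 ± 0.14 (adjusted p = 4.27e-05) and CYP11, CYP2 and CYP28 fell by 0.72 ± 0.16 (adjusted p = 0.00807), 1.04 ± 0.24 (adjusted p = 0.0102) and 1.08 ± 0.28 (adjusted p = 0.0169). The calls of these falls ended without 1 or 2 arrays of 0 h or 12 h (adjusted p up to 0.062, 0.0544 and 0.119). PPC1, a phosphoenolpyruvate carboxylase, was the 1 gene called of 9 (11.1%) in the list of these carboxylases and their kinases. It was not above background at 12 h and was lower by a factor of at least 2.09 (adjusted p = 0.00499). Changes in the list ran from -1.49 to 0.26. The brighter kinases PPCK3 (-1.49 ± 0.56, adjusted p = 0.0776) and PPCK2 (-1.30 ± 0.48, adjusted p = 0.0693) did not pass. Of 24 seed maturation and late embryogenesis genes 8.33% were called. PM23 fell by 2.43 ± 0.16 (adjusted p = 3.59e-06) from 1427 and 1172 to 202 and 256. PM37 rose by 0.64 ± 0.18 (adjusted p = 0.0245), a call lost without any 1 of 3 arrays.

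**Figure D4:**
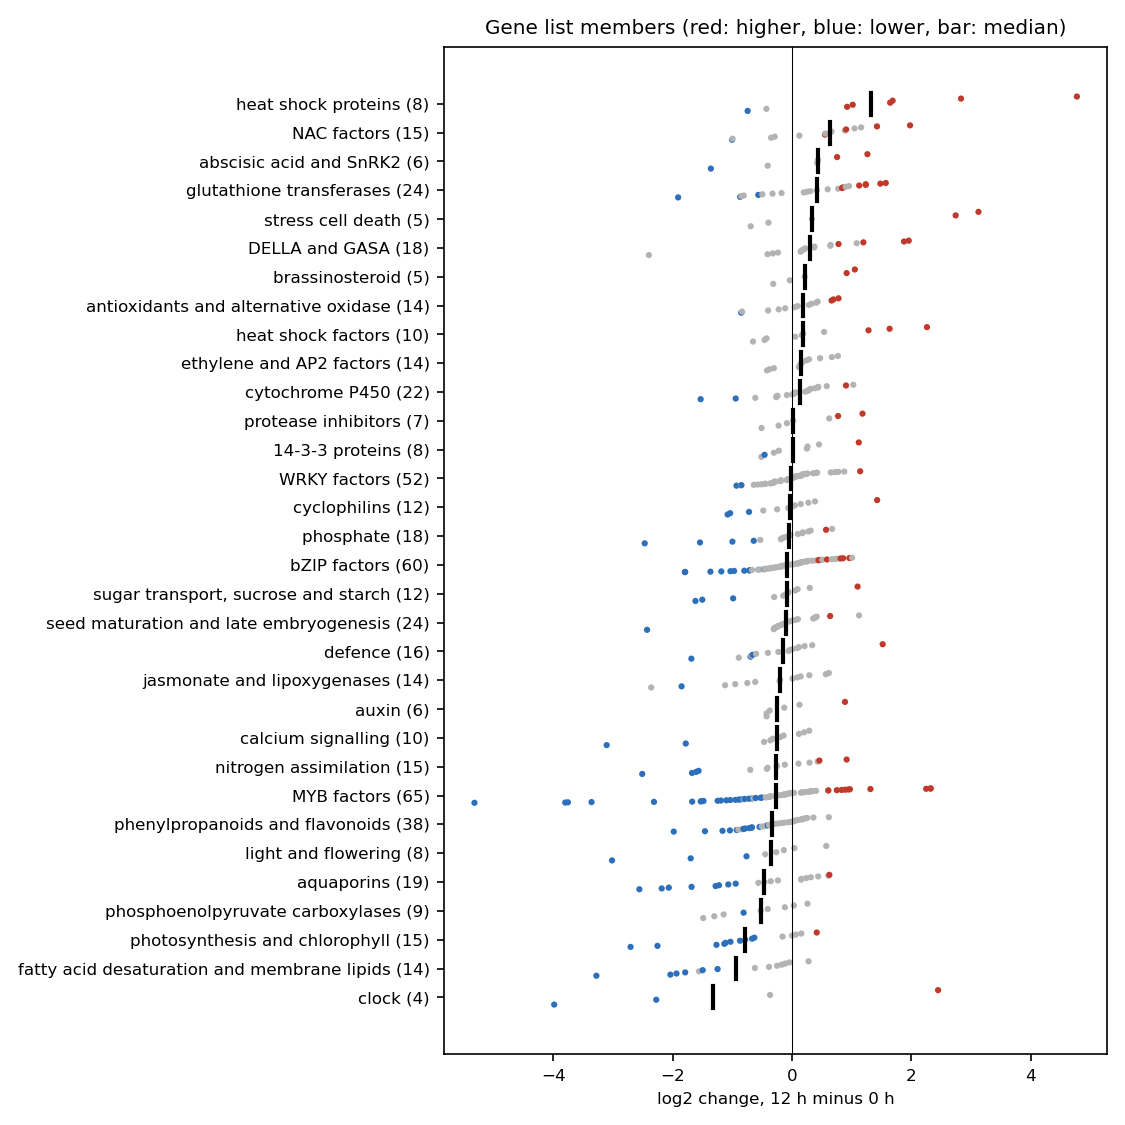
Log2 change at 12 h against 0 h of every member of the 32 gene lists with at least 4 genes, ordered by median (black bar), with the number of members in brackets. Red and blue points were called higher and lower, and the heat shock proteins and the photosynthesis, desaturation and clock lists lie farthest from 0.

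Several of the largest changes were of genes known by a LOC number, for which no role is given here. LOC100500220 read 17.8 and 21.7 at 0 h and 526 and 727 at 12 h, at least 24.3-fold higher (adjusted p = 8.49e-06). LOC100788166 read 85.8 and 41.8 at 0 h and 1315 and 1073 at 12 h and LOC100803175 141 and 56.7 at 0 h and 1933 and 815 at 12 h, rises of 3.97 ± 0.31 (adjusted p = 9.17e-06) and 3.58 ± 0.40 (adjusted p = 0.000137). LOC547877 and LOC100804784 rose by 4.04 ± 0.56 (adjusted p = 0.000526) and 3.57 ± 0.71 (adjusted p = 0.00431). A second probe set of LOC100804784, above background on no array, was at -0.02. LOC100779717 read 775 and 596 at 0 h and 4.1 and 4.6 at 12 h, at least 41.5-fold lower (adjusted p = 1.42e-07), and LOC100802922 314 and 298 at 0 h and 5.53 and 4.56 at 12 h, at least 18.7-fold lower (adjusted p = 2.01e-06). LOC100500586 read 2811 and 2322 at 0 h and 97.2 and 83.4 at 12 h and fell by 4.60 ± 0.19 (adjusted p = 1.57e-07). LOC100791698 fell by 4.26 ± 0.21 (adjusted p = 4.5e-07), though 1 of its 3 other probe sets rose by 0.97. LOC100306279 read 296 and 1815 at 0 h and 25.7 and 27.8 at 12 h and fell by 4.15 ± 0.92 (adjusted p = 0.00786), a call that ended without 0 h replicate 2 (adjusted p = 0.0616). SBPRP, the second largest fall with a name, read 5382 and 7583 at 0 h and 470.3 and 232 at 12 h and fell by 4.21 ± 0.28 (adjusted p = 3.08e-06).

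The samplings on either side show where 12 h stood apart. All 3 comparisons use the same 12 h arrays, so they are not independent of each other. From 6 to 12 h 3581 probe sets differed (9.53%), 1557 higher (4.14%) and 2024 lower (5.38%). From 12 to 24 h 5691 differed (15.1%), 3048 higher (8.11%) and 2643 lower (7.03%). Photosynthesis and chlorophyll genes gave 7 falls of 15 from 6 to 12 h and 7 rises from 12 to 24 h. Heat shock proteins gave 6 rises of 8 and then 4 falls, and flavonoid genes 7 falls of 38 and then 10 rises and 1 fall. MYB factors gave 4 rises and 8 falls of 65, and then 22 rises and 3 falls. For NAC12 neither step passed, with -0.27 (adjusted p = 0.657) from 6 to 12 h and -0.33 (adjusted p = 0.556) from 12 to 24 h. MYB173 read 292 and 191 at 24 h, above both 0 h arrays, with -0.12 (adjusted p = 0.856) against 12 h. HSF-03 read 339.9 and 221 at 24 h, also above both 0 h arrays, with 0.34 (adjusted p = 0.24). HSP90A1 read 308 and 258 at 24 h, below its 12 h level by 2.82 ± 0.26 and above both 0 h arrays.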

How the data were processed

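RNA of 14 leaf samples, 2 at each of 7 times, was hybridised to 1-colour arrays. The deposited table holds 1 linear intensity per probe set and array, from 0.92 to 12812.33, and the authors' normalization is not given in the sources used here. Of 61170 probe sets, 37593 soybean ones were tested. Each array was scaled to a soybean median of 56.04 (factors 0.950 to 1.07), and log2(value + 16) was computed from the scaled intensity. 7 group means were fitted with limma 3.58.1 in R 4.3.3 (7 residual and 4.25 prior degrees of freedom), with two-sided tests and Benjamini-Hochberg adjustment over all soybean probe sets. The labels call the 2 samples of a time independent biological replicates.

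Gene symbols came from a platform annotation that may be old: 8677 probe sets had 1 symbol, 370 several and 28546 none. A gene was its probe set of highest mean. None of the annotation's gene IDs matched the reference table (0 matched), so no coordinates are given. Named were the 12 largest rises and 12 largest falls among genes with a name, the 5 and 5 among LOC numbers, and up to 4 members of each of 33 lists (569 genes) with the lowest p, all past the test, above background on both arrays of a group and with 12 h arrays on 1 side of the 0 h arrays. Where no member of a list passed, its member of lowest p was named, and clock genes were all named. The members and lists were chosen with earlier results of these data known. Alternatives changed the scaling, pseudocount, filter on dim probe sets, arrays fitted, replicate block, variance prior and threshold.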

Additional observations from a re-analysis of the deposited data

Results flagged for a closer look

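For 10 named genes the 6 h arrays and the 12 h arrays lay on opposite sides of both 0 h arrays, and the step from 6 to 12 h passed limma's test. The 6 h and 12 h comparisons with 0 h share the 0 h arrays, and opposite sides of 0 h were not tested as such. The chaperone HSP90A1 read 42.2 and 43.8 at 6 h, below both 0 h arrays, and was 5.16 higher on the log2 scale at 12 h. HSP90-1 read 893 and 1071 at 6 h and was 1.65 higher at 12 h. The heat shock factor HSF-03 read 50.6 and 42.5 at 6 h and was 1.88 higher at 12 h. MYB173 read 23.9 and 23.2 at 6 h and was 2.80 higher at 12 h. MYB177 read 7.98 and 5.37 at 6 h, below the background of those arrays (20.7 and 20.6), and was at least 21.7-fold higher at 12 h; its fitted difference of 4.36 is against unmeasured signal and is no bound. NAC14 read 274 and 341 at 6 h and was 1.52 higher at 12 h. GASA22 read 244 and 303 at 6 h and was 3.33 higher at 12 h, and GASA27 read 2834 and 2789 and was 0.95 higher. The beta-amylase BMY2 read 1136 and 870 at 6 h and was 1.79 higher at 12 h. LOC100500220 read 9.28 and 10.3 at 6 h, also below background, and was at least 29.9-fold higher at 12 h. Its fitted difference of 4.62 is likewise no bound. Both 0 h arrays of LOC100500220 were below their own background too (25.1 and 25.8), so its place below 0 h at 6 h compares unmeasured signals.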

How the results depend on the processing

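With only the groups compared in the fit, 3641 probe sets differed between 12 and 0 h and 1919 between 12 and 6 h. At an adjusted p under 0.01 the counts were 4460 (12 against 0 h), 1147 (12 against 6 h) and 2779 (24 against 12 h). Leaving out each array in turn gave 5634 to 9115, 1198 to 4076 and 2790 to 6369 in that order. From 6 to 12 h the count was 1383 or 1198 when replicate 1 or 2 of 6 h was left out, and 1610 when replicate 1 of 12 h was. From 12 to 24 h it was 3138 when replicate 1 of 12 h was left out, and 2790 or 2947 when replicate 1 or 2 of 24 h was. These fits use fewer arrays or a stricter threshold. Of the 115 named calls 79 held without each array in turn and 36 did not, 34 of them only without an array of 0 or 12 h. With only the 4 arrays compared 29 calls were lost, against 8 with log2(value + 1) and at most 3 in each of the other full-data settings, and 0 reversed. With only those arrays the MYB list held 6 rises and 11 falls, the flavonoid list 5 falls, the photosynthesis list 6 falls and the bZIP list 1 rise and 5 falls. With the replicate number as a block the counts were 8734, 3203 and 5324. Differences between replicates 1 and 2 correlated weakly across times (r = -0.219 to 0.226 over 21 pairs of times, -0.108 for 0 and 12 h). With only replicate 1 against replicate 2 at each time, these correlations cannot decide whether a number marks a shared batch.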
